A study of Mus musculus with 12 samples.

Results

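Sox10, Foxd3, Erbb3, Cdh19, Mbp, Pmp22, S100b and Fabp7 form a set of 8 genes known from Schwann cells and olfactory ensheathing glia, followed here through RNA sequencing of newborn mouse frontal bone. They were taken as the rows of the deposited count table whose gene name equals one of the 8 names. All 8 were found among its 23358 rows. All 8 also passed the filter on low counts, which left 16190 genes for testing. The dissected piece also took in the nasal bone and 2 sutures, the coronal and the frontonasal, and all mice were at postnatal day 3. Wild type C57BL/6 mice (libraries 1, 2 and 3) were compared with C57BL/6 mice heterozygous for the C342Y change of FGFR2, labelled FGFR2C342Y/+ and called Crouzon mutants (libraries 4, 5 and 6). Wild type BALB/c mice (libraries 13, 14 and 15) were compared with BALB/c mice of that mutant genotype (libraries 16, 17 and 18). The allele is not tied to a tissue-specific driver in the labels. The labels do not say whether a library is 1 animal or a pool, so the p-values measure only the spread between these libraries, which may be technical.

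Schwann cells are the glia of peripheral nerves, where they arise from the neural crest and wrap axons, some of them in myelin. Olfactory ensheathing glia come from the same source and enclose the axon bundles that run from the nasal mucosa to the brain. Neuregulin made by axons signals through ErbB receptors to keep early Schwann cells alive and dividing, and the factor Sox10 is needed for both lineages and for the myelin genes.

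Coordinates are those of the deposited table, on mm10, and strands are those of GENCODE vM21. Foxd3 lies on chromosome 4 (99656299 to 99658671), Fabp7 (57784923 to 57788450) and S100b (76253836 to 76261319) on chromosome 10, and Pmp22 on chromosome 11 (63131510 to 63159546), all on the plus strand. Sox10 on chromosome 15 (79154913 to 79164490), Erbb3 on chromosome 10 (128569368 to 128589501) and Cdh19 on chromosome 1 (110889195 to 110977372) are on the minus strand. Mbp spans 110.5 kb. The span of S100b overlaps Dip2a, a gene of the other strand that has its own row. Whether counting used strand is not given in the sources used here, so reads of those 2 genes may not be told apart.

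Promoter windows, from 250 bases before to 50 bases after a RefSeq start (GRCm38.p6), were given for 4 of the 8 genes: Foxd3, Fabp7, S100b and Pmp22. The windows of Foxd3, Fabp7 and S100b are printed because these 3 genes had lower values in every C57BL/6 mutant library than in any C57BL/6 wild type library. Pmp22, which did not, has 4 windows. The 2 printed here lie upstream of the deposited row's start, and they belong to a gene with alternative first exons. All 5 sequences are read 5′ to 3′ on the plus strand, and capitals mark CG pairs.
Foxd3, chr4:99656049-99656348: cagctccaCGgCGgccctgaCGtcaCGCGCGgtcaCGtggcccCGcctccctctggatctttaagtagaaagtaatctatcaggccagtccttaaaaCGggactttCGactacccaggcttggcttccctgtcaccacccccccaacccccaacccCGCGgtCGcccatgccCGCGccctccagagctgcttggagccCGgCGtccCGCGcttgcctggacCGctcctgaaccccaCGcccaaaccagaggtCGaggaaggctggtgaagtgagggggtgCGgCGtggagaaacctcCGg
Fabp7, chr10:57784673-57784972: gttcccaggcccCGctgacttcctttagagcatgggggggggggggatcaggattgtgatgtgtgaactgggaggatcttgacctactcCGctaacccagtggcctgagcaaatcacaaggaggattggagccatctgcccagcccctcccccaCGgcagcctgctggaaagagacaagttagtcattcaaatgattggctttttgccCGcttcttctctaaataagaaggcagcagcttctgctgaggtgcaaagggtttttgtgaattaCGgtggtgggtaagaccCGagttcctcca
S100b, chr10:76253586-76253885: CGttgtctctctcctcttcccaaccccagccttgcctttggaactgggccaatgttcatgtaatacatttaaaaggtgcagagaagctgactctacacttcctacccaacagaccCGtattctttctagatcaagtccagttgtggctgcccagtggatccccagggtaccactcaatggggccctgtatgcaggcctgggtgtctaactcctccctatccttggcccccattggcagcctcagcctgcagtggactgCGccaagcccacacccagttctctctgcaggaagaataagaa
Pmp22, chr11:63128732-63129031: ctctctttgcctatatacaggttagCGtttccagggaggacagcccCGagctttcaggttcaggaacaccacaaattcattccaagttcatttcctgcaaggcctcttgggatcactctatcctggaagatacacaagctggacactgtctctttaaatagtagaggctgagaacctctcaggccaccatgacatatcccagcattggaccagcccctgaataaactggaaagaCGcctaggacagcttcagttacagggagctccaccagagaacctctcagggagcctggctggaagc
Pmp22, chr11:63131207-63131506: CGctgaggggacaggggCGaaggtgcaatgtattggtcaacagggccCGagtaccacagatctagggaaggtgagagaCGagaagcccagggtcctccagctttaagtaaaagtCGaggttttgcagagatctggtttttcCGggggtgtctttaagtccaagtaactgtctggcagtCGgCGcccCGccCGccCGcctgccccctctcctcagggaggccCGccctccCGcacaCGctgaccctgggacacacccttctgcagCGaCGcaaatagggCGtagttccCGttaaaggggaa

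The Foxd3 window holds 25 CG pairs and 65.7% G and C. The Fabp7 window holds 6 CG pairs and 54% G and C, and the S100b window 3 CG pairs and 53.7% G and C. The 2 Pmp22 windows differ, with 3 pairs in the first and 18 in the second. The median over 32851 windows of this length was 7 pairs, with quartiles of 3 and 20. Sox10-type factors bind short AT-rich motifs, so the letters ACAAAG and ACAATG were searched on both strands. Neither was found in any of the 7 windows of the 4 genes, while 18.7% of all windows held the first, 12.6% the second and 28.6% at least one. This says only that these letters are not in these windows.

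Each library held between 27181658 and 46521546 counts. The bone label fitted its markers. The summed level of 7 osteoblast genes was between 66382 CPM in C57BL/6 wild type 1 and 152370 CPM in C57BL/6 mutant 6. Col1a1 made up most of that sum in every library. Over the 12 libraries Sp7 was between 203 and 427 CPM, Bglap between 164 and 550 CPM and Ibsp between 1070 and 2524 CPM. CPM is the count of a gene over the library's total, with that total adjusted by edgeR's TMM factors. Some libraries stood apart in tissue that is not bone. Omp, the marker of mature olfactory neurons, was at 100, 48.8 and 58.5 CPM in C57BL/6 wild type 1, 2 and 3 and at 36.1 CPM in C57BL/6 mutant 4, and at most at 0.703 CPM in the other 8 libraries. BALB/c mutant 16 held a summed level of 415 CPM over 8 skeletal muscle genes, against 26.6 and 3.79 CPM in BALB/c mutants 17 and 18. Run identifiers in the descriptions differ between the strains and not within one, so strain and run cannot be told apart, while both genotype comparisons were made within 1 run.

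The glial label was checked against genes that the set does not hold. Ngfr, the low-affinity neurotrophin receptor, was between 3.93 and 17.4 CPM in the 12 libraries. Cldn19, a tight junction protein of Schwann cells, was at 22.7 CPM in BALB/c mutant 16, at 2.53 CPM in C57BL/6 mutant 6, and between 0.0970 and 1.08 CPM in the other 10 libraries. Npy, a marker of olfactory ensheathing glia, was at most at 0.839 CPM in any library. Of 6 oligodendrocyte genes, the myelin genes Opalin (0 in all 12 libraries), Mobp (at most 0.108 CPM) and Mog (at most 0.416 CPM) were near 0. The lineage factors Olig1 (at most 7.33 CPM) and Olig2 (at most 11.7 CPM) were present in C57BL/6 wild type 1, 2 and 3 and mutant 4, and Sox8, which other cells make too, was between 2.33 and 6.86 CPM. Melanocytes share Sox10 with glia. Of 8 melanocyte genes, Tyrp1 (at most 0.542 CPM), Mlana (at most 0.180 CPM) and Dct (at most 1.99 CPM) were near 0 in most libraries. Tyr, the enzyme of pigment synthesis, was between 1.77 and 3.48 CPM in the C57BL/6 libraries and at most at 0.215 CPM in the BALB/c libraries, and Pmel was between 1.23 and 3.55 CPM in all 12. Mitf (7.09 to 13.6 CPM), Kit (8.94 to 27.1 CPM) and Ednrb (16.8 to 30.6 CPM), which other cells make too, were present in all 12 libraries. The part of melanocytes in the Sox10 values was not tested.

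Levels between genes were compared per length, on the deposited RPKM scale. Pmp22 stood highest, with a median over the 12 libraries of 47.3 RPKM (range 37.7 to 98.4), and lay above the next gene in 12 of 12 libraries. S100b (median 7.64 RPKM) and Fabp7 (median 5.96 RPKM) did not separate, since S100b was the higher of these 2 in 6 of 12 libraries. Mbp followed at a median of 1.53 RPKM and was below Fabp7 in 11 of 12 libraries. Sox10 (median 0.872 RPKM) and Erbb3 (median 0.404 RPKM) did not separate, with Sox10 higher in 7 of 12 libraries. Foxd3 (median 0.281 RPKM) was below Erbb3 in 8 of 12 libraries and above Cdh19 (median 0.157 RPKM) in 11 of 12. The lowest count of any of the 8 genes in any library was 12, for Foxd3 in C57BL/6 mutant 5.

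**Figure D1:**
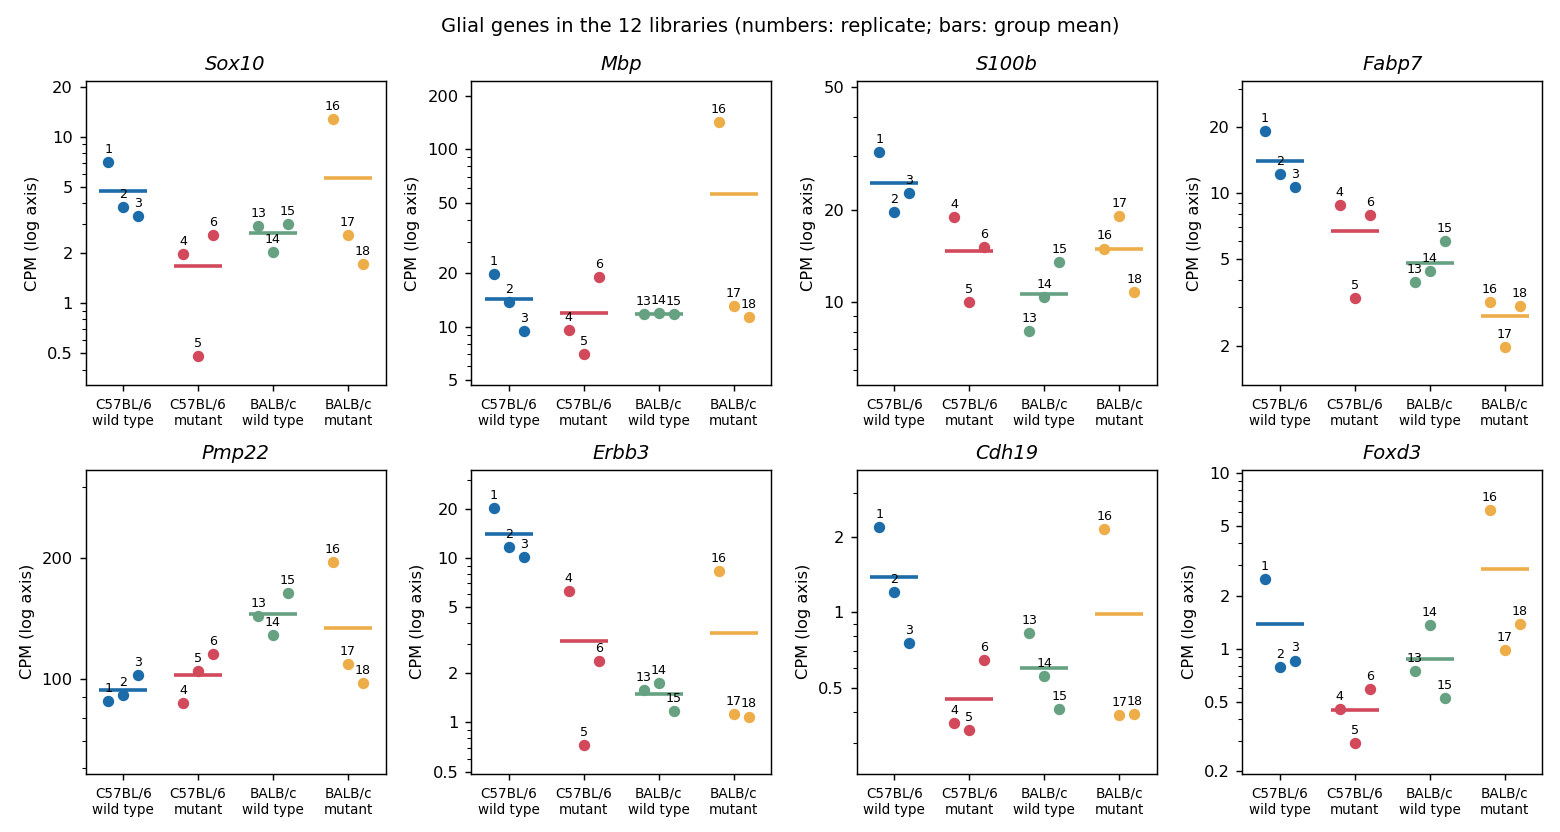
Level of each of the 8 glial genes in CPM (log axis, a separate range per gene) in the 12 libraries, by group. Points carry the library number and bars are group means (n = 3). BALB/c mutant 16 is the highest library for Sox10, Mbp, Pmp22 and Foxd3, C57BL/6 wild type 1 for the other 4 genes (8.88% and 21.8% of all genes are highest in these 2 libraries), and C57BL/6 mutant 5 the lowest for 5 genes.

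Sox10, the transcription factor that specifies and maintains peripheral glia, measured 7.07, 3.79 and 3.32 CPM in C57BL/6 wild type 1, 2 and 3 and 1.99, 0.485 and 2.59 CPM in C57BL/6 mutants 4, 5 and 6. In BALB/c it measured 2.93, 2.04 and 2.99 CPM in wild type 13, 14 and 15 and 12.7, 2.58 and 1.72 CPM in mutants 16, 17 and 18. All C57BL/6 mutant libraries lay below all C57BL/6 wild type libraries. The BALB/c groups overlapped, with mutant 16 alone far above the rest. Within C57BL/6 the mean was 4.73 ± 2.04 CPM (SD, n = 3) without the allele and 1.69 ± 1.08 CPM (SD, n = 3) with it.

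Foxd3, a neural crest factor that stays on in the glial lineage, measured 2.49, 0.783 and 0.858 CPM in the C57BL/6 wild type libraries and 0.452, 0.291 and 0.593 CPM in the C57BL/6 mutants. It measured 0.751, 1.36 and 0.527 CPM in BALB/c wild type and 6.18, 0.990 and 1.38 CPM in BALB/c mutants. As for Sox10, the C57BL/6 groups did not overlap, and mutant 16 was the highest of the 12 libraries. All 3 BALB/c mutants lay above all 3 C57BL/6 mutants.

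Erbb3, the neuregulin receptor of Schwann cells and their precursors, measured 20.3, 11.7 and 10.2 CPM in C57BL/6 wild type and 6.28, 0.728 and 2.37 CPM in C57BL/6 mutants. It measured 1.58, 1.73 and 1.17 CPM in BALB/c wild type and 8.33, 1.12 and 1.08 CPM in BALB/c mutants. The 3 C57BL/6 wild type libraries were the highest of the 12. The next were mutant 16 of BALB/c and mutant 4 of C57BL/6. Erbb3 had the widest span of the 8 genes, 27.9-fold between its highest and lowest library. The receptor is also made by many epithelia.

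Cdh19, a cadherin of nerve-associated glial precursors, was the gene of lowest level per length. It measured 2.18, 1.20 and 0.751 CPM in C57BL/6 wild type and 0.361, 0.340 and 0.647 CPM in C57BL/6 mutants. It measured 0.826, 0.556 and 0.410 CPM in BALB/c wild type and 2.16, 0.387 and 0.394 CPM in BALB/c mutants. The C57BL/6 groups did not overlap. In BALB/c, mutant 16 was above every wild type library, and mutants 17 and 18 were below every one.

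Mbp, the myelin basic protein that compacts the myelin sheath, measured 19.9, 13.7 and 9.44 CPM in C57BL/6 wild type and 9.53, 7.03 and 19.0 CPM in C57BL/6 mutants. It measured 11.7, 11.9 and 11.7 CPM in BALB/c wild type and 142, 13 and 11.4 CPM in BALB/c mutants. Apart from mutant 16, the 11 other libraries lay between 7.03 and 19.9 CPM, and the groups overlapped in all comparisons. Mutant 16 exceeded the second highest library 7.15-fold.

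Pmp22, a membrane protein of peripheral myelin that many other cells make too, measured 88.1, 91.1 and 102 CPM in C57BL/6 wild type and 86.9, 105 and 115 CPM in C57BL/6 mutants. It measured 143, 128 and 164 CPM in BALB/c wild type and 195, 109 and 97.3 CPM in BALB/c mutants. Its span over the 12 libraries was the narrowest of the set, at 2.25-fold. All BALB/c wild type libraries lay above all C57BL/6 wild type libraries, while the genotypes overlapped in both strains.

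S100b, a calcium-binding protein of glia that chondrocytes also make, measured 30.9, 19.6 and 22.7 CPM in C57BL/6 wild type and 18.9, 9.99 and 15.1 CPM in C57BL/6 mutants. It measured 8.04, 10.4 and 13.5 CPM in BALB/c wild type and 14.9, 19.0 and 10.8 CPM in BALB/c mutants. The C57BL/6 groups did not overlap and the BALB/c groups did. The highest BALB/c library was mutant 17, which also had the highest summed level of 8 chondrocyte genes among the BALB/c libraries, 9152 CPM against 3643 to 4765.8 CPM in the other 5. Over C57BL/6 wild type 1, 2 and 3 that sum was 10003, 8360.4 and 8423.5 CPM, and over the mutants 4, 5 and 6 it was 6432.5, 3632 and 4030.0 CPM. Col11a2, between 2691 and 3982.5 CPM in the 12 libraries, made up most of the sum in C57BL/6 mutants 5 and 6. Col2a1 was at 4931.5, 3257 and 3525.5 CPM in C57BL/6 wild type and 1864, 83.6 and 112 CPM in C57BL/6 mutants. In BALB/c, Col2a1 was at 3805 CPM in mutant 17 and between 248 and 1154 CPM in the other 5 libraries. The part of cartilage in the S100b values was not tested.

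Fabp7, the brain-type fatty acid binding protein of radial glia, Schwann cell precursors and ensheathing glia, measured 19.2, 12.3 and 10.7 CPM in C57BL/6 wild type and 8.81, 3.30 and 7.92 CPM in C57BL/6 mutants. It measured 3.91, 4.38 and 6.03 CPM in BALB/c wild type and 3.18, 1.98 and 3.05 CPM in BALB/c mutants. All mutant libraries lay below all wild type libraries of their strain, in both strains. It was the only one of the 8 genes with separate genotypes in BALB/c.

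In C57BL/6, where the question is what the Crouzon allele does within 1 strain, Fabp7 fell by 1.07 (log2, SE 0.34). Its adjusted p was 0.0405 in edgeR's quasi-likelihood test, with Benjamini-Hochberg adjustment over all genes. It was the only gene of the set to pass, 1 of 8, in a comparison that called 23.9% of all genes tested (12.6% as lower). The log2 difference (mutant minus wild type) was negative for 7 of the 8 genes, with a median of -1.28 against -0.0040 over all genes. For 6 of 8 genes the mutant libraries lay wholly below the wild type libraries, a separation that 21.9% of all genes showed in this direction and 41.6% in either. In bulk tissue, fewer cells of a type and less RNA per cell cannot be told apart.

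The values that did not pass in C57BL/6 included the largest of the set. The log2 difference of Erbb3 was -2.16 (SE 0.80, edgeR adjusted p = 0.0671). That of S100b was -0.73 (SE 0.27, edgeR adjusted p = 0.0662). The log2 differences of Cdh19 (-1.62), Foxd3 (-1.63) and Sox10 (-1.49) had edgeR adjusted p-values of 0.0960, 0.116 and 0.143. Both myelin proteins were nearer to 0, with Mbp at -0.28 (SE 0.80) and Pmp22 at 0.12 (SE 0.21), and the sign of Pmp22 turned to -0.07 when libraries were scaled by total counts.

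The C57BL/6 call depended on single libraries. Without C57BL/6 mutant 4, the mutant library with nasal tissue markers, 3 of 8 genes passed in a fit that called 29.4% of all genes, with S100b at -0.97 (edgeR adjusted p = 0.0195), Erbb3 at -3.20 (edgeR adjusted p = 0.0119) and Fabp7. Without wild type 1, wild type 2, mutant 5 or mutant 6 none of the 8 passed, in fits that called 13.6%, 20.4%, 14.1% and 10.7% of all genes. The adjusted p of Fabp7 was 0.166, 0.0550, 0.0928 and 0.0719 in these 4 edgeR fits. In an edgeR fit of only the C57BL/6 libraries the adjusted p of Fabp7 was 0.118. DESeq2 called 2 of the 8 genes, S100b and Fabp7, and 27.6% of all genes. Limma-voom called these 2 and Erbb3, and 29.1% of all genes.

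Nasal tissue moved with this comparison. The summed level of 8 olfactory neuron genes was 337, 223 and 240 CPM in C57BL/6 wild type and 209, 133 and 145 CPM in C57BL/6 mutants, and that of 6 nasal gland and sustentacular genes was 622, 200 and 274 CPM against 123, 0.776 and 1.35 CPM. Adcy3 made up most of the olfactory neuron sum in the C57BL/6 mutants, at 119, 124 and 133 CPM. In C57BL/6 wild type Adcy3 was between 83 and 93.2 CPM. Gnal was the next highest gene of that list in mutants 5 and 6, at 5.09 and 5.87 CPM. In C57BL/6 wild type Gnal was at 72.9, 37.5 and 42.9 CPM. The olfactory neuron genes called were 2 lower and 1 higher of 8, and the higher one was Adcy3. Peripheral neuron genes, tested for 8 of 10, had 4 lower and 0 higher. With the mean log2 level of the olfactory neuron genes as a covariate, the log2 difference of Fabp7 was -0.40 (edgeR adjusted p = 0.831), and with that of the ciliated cell genes it was -0.14 (edgeR adjusted p = 0.990). These 2 fits called 1.1% and 0.0185% of all genes, against 23.9% without a covariate. The genotype itself fixed 62.6% and 76.1% of the variance of these 2 covariates within C57BL/6 (olfactory neuron and ciliated cell).

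In BALB/c, none of the 8 genes passed edgeR's test, in a comparison that called 0.136% of all genes. DESeq2, which called 2% of all genes, also called 0 of 8, and 3 of 8 had an unadjusted edgeR p under 0.05, against 11.7% of all genes. Fabp7 had a log2 difference (mutant minus wild type) of -0.81 (SE 0.36, edgeR adjusted p = 0.403) and was the 1 gene of 8 with separate groups, which 20% of all genes showed, 10% in this direction. Several of the other values depended on a single library. Mbp stood at 2.23 (SE 0.81, edgeR adjusted p = 0.313) with all libraries and at 0.05 (SE 0.37) without mutant 16. Foxd3 stood at 1.68 (SE 0.70, edgeR adjusted p = 0.374) with all libraries and at 0.43 (SE 0.57) without mutant 16.

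Sox10, Erbb3 and Cdh19 changed sign when mutant 16 was left out, from 1.09, 1.22 and 0.70 to -0.30, -0.43 and -0.60 on the log2 scale. Fabp7 (-0.93) and S100b (0.48) stayed near their values. Pmp22 went from -0.12 to -0.49 (SE 0.13, edgeR adjusted p = 0.197). None of the 8 passed in that fit either, which called 0.0741% of all genes.

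**Figure D2:**
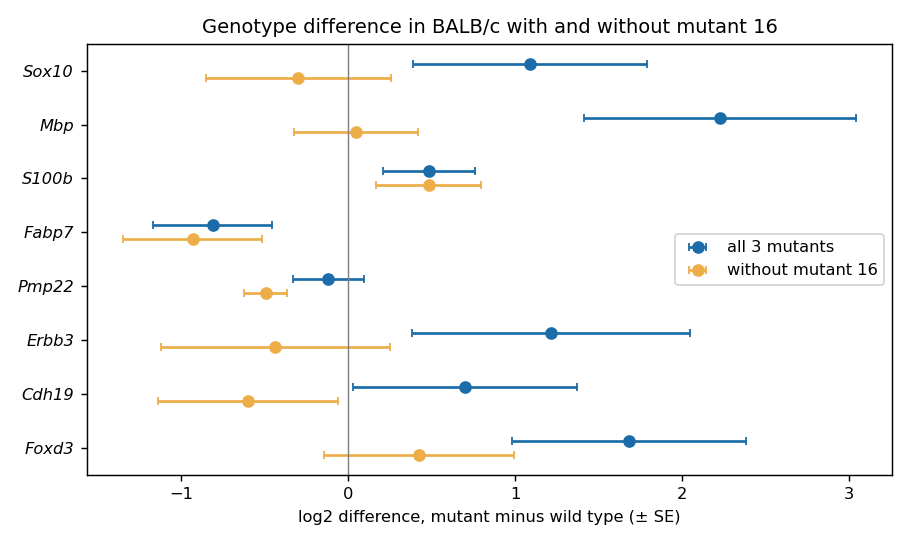
Log2 difference (mutant minus wild type) of the 8 glial genes in BALB/c, from edgeR, with all 3 mutants and with mutant 16 left out; bars are ± SE. Mbp moves from 2.23 to 0.05, and Sox10, Erbb3 and Cdh19 move from above 0 to below 0, while S100b and Fabp7 stay in place.

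BALB/c mutant 16 stood apart from the other 2 BALB/c mutants in myelin genes. Against the mean of mutants 17 and 18, its CPM was 11.7-fold higher for Mbp, 7.57-fold for Erbb3, 5.90-fold for Sox10, 5.53-fold for Cdh19 and 5.22-fold for Foxd3. The ratio was 1.89 for Pmp22, 1.26 for Fabp7 and 1.00 for S100b. A ratio of at least 2 was reached by 5 of the 8 genes and by 3.95% of all genes. These are values of 1 library with no test. Of 13 myelin protein genes outside the set, 11 were highest in mutant 16 of all 12 libraries, as were 8.88% of all genes. Cldn19 was at 22.7 CPM there against 0.258 and 0.492 CPM in mutants 17 and 18, and Pmp2, a myelin lipid carrier, was at 11.7 CPM against 0.172 and 0.0492 CPM. The summed myelin level was 631 CPM in mutant 16 and between 51.4 and 110 CPM in the other 11 libraries.

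Skeletal muscle genes were high in that library too. Acta1, the skeletal muscle actin, was at 155 CPM in mutant 16, and 7 of 8 skeletal muscle genes were highest there. C57BL/6 wild type 2 had the next highest muscle sum, at 79.5 CPM, with Mbp at 13.7 CPM. Neuron and nasal markers were low in mutant 16: the peripheral neuron sum was 8.63 CPM, within the 7.87 to 11.7 CPM of the other BALB/c libraries, and the nasal gland sum was 0.300 CPM, the lowest of the 12. All 7 erythroid genes were also highest in mutant 16, with a sum of 558 CPM against 461 and 492 CPM in mutants 17 and 18. The part of muscle, nerve or blood in the values of mutant 16 was not tested.

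The genotype by strain interaction asks whether the mutant minus wild type difference differed between the strains, taken as BALB/c minus C57BL/6. It passed for none of the 8 genes with edgeR, in a comparison that called 10% of all genes. DESeq2, which called 16.6% of all genes, called 2 of 8, Foxd3 (3.32, DESeq2 adjusted p = 0.00687) and S100b (1.22, DESeq2 adjusted p = 0.0106). With edgeR, 6 of 8 had an unadjusted p under 0.05, against 29.5% of all genes. The log2 interaction was 3.31 (SE 1.01, edgeR adjusted p = 0.0569) for Foxd3 and 1.22 (SE 0.39, edgeR adjusted p = 0.0646) for S100b. It was 3.38 (SE 1.15, edgeR adjusted p = 0.0789) for Erbb3 and 0.26 (SE 0.49, edgeR adjusted p = 0.762) for Fabp7, so a difference between strains in the Fabp7 response was not detected. Sox10 (2.58), Mbp (2.51), Cdh19 (2.32) and Pmp22 (-0.24) had edgeR adjusted p-values of 0.114, 0.164, 0.128 and 0.630. Without mutant 16 the values were 2.06 for Foxd3, 1.73 for Erbb3, 1.22 for S100b, 1.19 for Sox10, 0.33 for Mbp, 1.02 for Cdh19 and -0.62 for Pmp22, and 0 of 8 passed. Without C57BL/6 mutant 4, in a fit that called 19.4% of all genes, S100b (1.45, edgeR adjusted p = 0.0171) and Erbb3 (4.41, edgeR adjusted p = 0.0146) passed. Without BALB/c mutant 17, in a fit that called 4.77% of all genes, Foxd3 passed (3.73, edgeR adjusted p = 0.0495).

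Between the wild type groups of the strains, 4 of the 8 genes passed edgeR's test, in a comparison that called 48.5% of all genes (22.8% as higher and 25.6% as lower in BALB/c). Erbb3 was lower in BALB/c, with a log2 difference (BALB/c minus C57BL/6) of -3.24 (SE 0.85, edgeR adjusted p = 0.00851). Fabp7 differed by -1.55 (SE 0.35, edgeR adjusted p = 0.0035) and S100b by -1.19 (SE 0.28, edgeR adjusted p = 0.00413). These 3 genes passed in 6 of 6 fits that left out 1 library. Pmp22 was higher in BALB/c, by 0.63 (SE 0.21, edgeR adjusted p = 0.0293), and passed in 2 of 6 such fits: without wild type 1, 2, 13 or 15 its edgeR adjusted p was 0.0763, 0.0733, 0.0622 and 0.1004. Scaled by total counts it was 0.0664. Sox10 (-0.84), Cdh19 (-1.22), Foxd3 (-0.65) and Mbp (-0.29) did not pass. Ranges did not overlap for 5 of 8 genes and for 57.5% of all genes.

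The C57BL/6 wild type libraries were also those with nasal tissue. All 8 olfactory neuron genes and all 7 ciliated cell genes tested were lower in BALB/c wild type. With either list's mean level as a covariate none of the 4 calls was kept. Those fits called 10.5% (olfactory neuron covariate) and 2.38% (ciliated cell covariate) of all genes, against 48.5% without a covariate. The log2 difference of Erbb3 was then -0.46 and -0.36, that of Fabp7 -0.58 and -0.34, that of S100b -0.16 and -0.10, and that of Pmp22 0.38 and 0.06, for the olfactory neuron and the ciliated cell covariate. The 4 groups fixed 81.1% and 86.2% of the variance of these covariates.

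Between the mutant groups of the strains, 3 of the 8 genes passed edgeR's test, in a comparison that called 36.9% of all genes (18% as higher and 18.9% as lower in BALB/c). Fabp7 was lower in BALB/c mutants, by -1.29 on the log2 scale (SE 0.35, edgeR adjusted p = 0.0136), and Foxd3 was higher, by 2.66 (SE 0.73, edgeR adjusted p = 0.0137). Both had groups that did not overlap, as had 50.2% of all genes. Mbp was higher by 2.22 (SE 0.81, edgeR adjusted p = 0.0479) with overlapping groups. Sox10 (1.74), Cdh19 (1.11), Pmp22 (0.39), Erbb3 (0.14) and S100b (0.03) did not pass. Without mutant 16, Mbp was at 0.04 (edgeR adjusted p = 0.947), Foxd3 at 1.41 (edgeR adjusted p = 0.0917) and Fabp7 at -1.41 (edgeR adjusted p = 0.0276), so only Fabp7 passed, in a fit that called 27.8% of all genes. Mbp also missed the threshold without C57BL/6 mutant 4, 5 or 6 (edgeR adjusted p = 0.0962, 0.130 and 0.0502). Fabp7 missed it without BALB/c mutant 17 (edgeR adjusted p = 0.0593), and Sox10 passed without BALB/c mutant 18 (2.18, edgeR adjusted p = 0.0329). Limma-voom called only Fabp7, with adjusted p-values of 0.261 for Mbp and 0.0776 for Foxd3. In an edgeR fit of only the mutant libraries the adjusted p of Mbp was 0.113. With the olfactory neuron covariate Fabp7 stood at -0.92 (edgeR adjusted p = 0.0564).

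**Figure D3:**
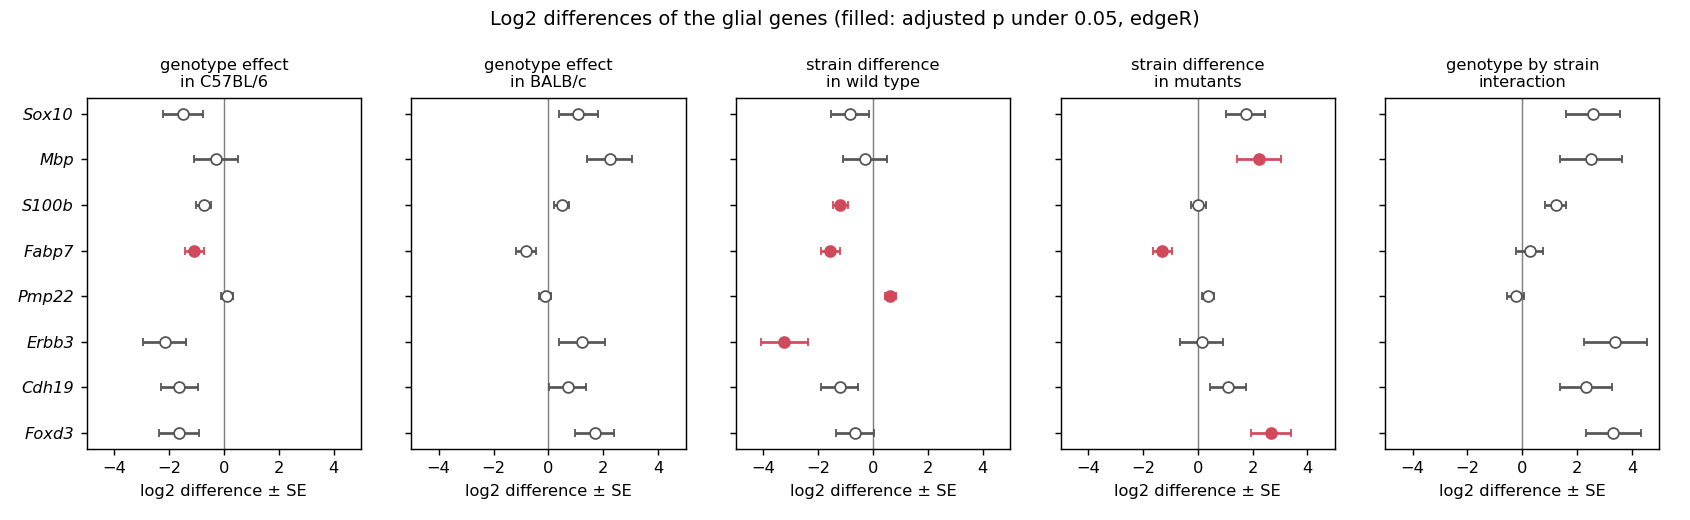
Log2 differences of the 8 glial genes (± SE, edgeR, all 12 libraries) in the 2 genotype comparisons (mutant minus wild type), the 2 strain comparisons (BALB/c minus C57BL/6) and the interaction; filled points have an adjusted p under 0.05. Filled points are Fabp7 in C57BL/6, S100b, Fabp7, Pmp22 and Erbb3 between wild types, and Mbp, Fabp7 and Foxd3 between mutants.

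The comparisons share libraries, and their values are set side by side here without a test across them. Fabp7 had a negative log2 difference in both genotype comparisons (-1.07 and -0.81) and in both strain comparisons (-1.55 and -1.29). Erbb3 stood at -2.16 and 1.22 in the genotype comparisons and at -3.24 and 0.14 in the strain comparisons. Foxd3 stood at -1.63 and 1.68 in the genotype comparisons.

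The authors' deposited table, made with DESeq2 per the submitters' processing notes, gave smaller log2 differences between the C57BL/6 genotypes for all 8 genes than the edgeR fit. In the authors' deposited table the C57BL/6 genotype comparison had a q-value of 0.00503 for Fabp7 (-0.85), 0.00259 for Erbb3 (-0.98) and 0.0102 for Cdh19 (-0.92). The other 3 genes with a value were Sox10 (q-value 0.162), S100b (q-value 0.541) and Pmp22 (q-value 0.752) in the authors' deposited table. Between wild types that table gave S100b a q-value of 0.232, while Fabp7 (6.61e-06), Erbb3 (7.83e-06), Pmp22 (0.00646) and Cdh19 (0.0264) had q-values under 0.05, so S100b passed here and not there and Cdh19 there and not here. In BALB/c that table gave Fabp7 a q-value of 0.263 (-0.63), the lowest of the 6 genes with a value. Mbp and Foxd3 had an empty p-value in all 4 comparisons of the authors' deposited table.

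Other genes of peripheral glia were counted in lists. Over 6 lists (myelin, Schwann regulator, precursor and nonmyelinating, ensheathing, neuregulin, neural crest) 53 different genes were tested. Of these, edgeR called 14 between the C57BL/6 genotypes, where it called 23.9% of all genes, 22 between wild types (48.5% of all genes) and 16 between mutants (36.9% of all genes). In C57BL/6, precursor and nonmyelinating Schwann cell genes had 5 of 10 lower and 0 higher in the mutants, where 12.6% of all genes were called lower. L1cam, an adhesion protein of axons and unmyelinated Schwann cells, fell by 1.89 (log2, SE 0.44, edgeR adjusted p = 0.0116), and Gap43, a growth cone protein, fell by 1.82 (SE 0.48, edgeR adjusted p = 0.0185). Both are also made by neurons. Others called were Ncam1 (-0.63) and, outside the rule for named genes and named after its value was seen, the intermediate filament Gfap (-1.18). The list's median log2 difference was -0.85. Of 13 myelin protein genes 1 was lower, Ugt8a, the enzyme that makes the galactolipid of myelin (-2.57, SE 0.78, edgeR adjusted p = 0.0345), and the list's median was -0.21. Of 12 Schwann cell regulators 1 was higher, the corepressor Nab2 (0.40), and 1 lower, the laminin chain Lama2 (-0.56). Of 8 ensheathing glia genes 2 were lower, Gfap again and the secreted Wnt antagonist Frzb (-0.79, SE 0.17, edgeR adjusted p = 0.00792), which cartilage makes too.

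In the receptor's own pathway, 5 of 7 neuregulin and ErbB genes could be tested, and 1 was lower in C57BL/6 mutants. Erbb2, the signalling partner of Erbb3, had a log2 difference of -0.15 (SE 0.06, edgeR adjusted p = 0.0827). Nrg1, a neuregulin made by axons, fell by 3.41 (SE 0.76, edgeR adjusted p = 0.00912). Nrg1 lies outside the rule for named genes, since its mean was under 1 CPM, and was chosen after its values were seen. Neural crest factors had 4 of 8 lower in C57BL/6 mutants, including Pax3 (-2.80, SE 0.90, edgeR adjusted p = 0.0426), a factor of crest and muscle precursors, the cartilage factors Sox5 (-1.14) and Sox9 (-1.09) and, named after its value was seen, Tfap2b (-0.70).

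Markers of other cells were counted in the same C57BL/6 comparison. Lower in mutants were 5 of 7 ciliated cell genes tested, 2 of 6 nasal gland and sustentacular genes, 1 of 8 chondrocyte genes and all 7 erythroid genes, with none higher in these 4 lists. All 8 chondrocyte genes had an unadjusted edgeR p under 0.05, and DESeq2 called 2 of them. Among these 8, Col11a2 was higher in mutants (0.24) and the others were lower. Higher in mutants were 5 of 7 osteoblast genes, 3 of 7 fibroblast and perineurial genes and 2 of 5 endothelial genes, with none lower. Of 5 melanocyte genes tested 2 were higher and 1 lower, and of 5 astrocyte genes 1 was higher. None passed edgeR's test among 3 oligodendrocyte genes tested (3 with an unadjusted p under 0.05, 1 called by DESeq2) or 8 skeletal muscle genes (3 and 2). Olig2, a factor of the oligodendrocyte lineage, was at 11.7, 5.48 and 6.38 CPM in C57BL/6 wild type and 2.67 CPM in mutant 4, and at most at 0.0600 CPM in the other 8 libraries. The part of these cells in the values of the 8 glial genes was not tested.

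Between the BALB/c genotypes, 0 of the 53 genes of these 6 lists passed edgeR's test, and DESeq2 called 2. An unadjusted edgeR p under 0.05 was found for 15 of them, 8 of them myelin genes, and for 11.7% of all genes. The myelin list's median log2 difference was 2.07, with the high values in mutant 16 alone: its sum was 631 CPM there, 64.6 and 59.2 CPM in mutants 17 and 18, and 71.4, 66.5 and 60.7 CPM in BALB/c wild type. Between mutants of the strains, precursor and nonmyelinating genes had 4 of 10 higher in BALB/c, where 18% of all genes were called higher, including Gfap (2.54, SE 0.32, edgeR adjusted p = 9.77e-05), the artemin receptor Gfra3 (1.73), the sodium channel Scn7a (1.06) and, named after its value was seen, Gas7 (0.80). Gfap was at 3.72, 3.01 and 3.25 CPM in BALB/c mutants and 0.723, 0.388 and 0.593 CPM in C57BL/6 mutants, so that value did not rest on mutant 16 alone. Myelin genes had 2 of 13 higher, near that share, Pmp2 (4.69) and Ugt8a (3.52). Pmp2 was high in mutant 16 alone, at 11.7 CPM against at most 0.323 CPM in the other 5 mutants. Ugt8a was at 10.97, 1.59 and 1.82 CPM in BALB/c mutants and at 0.452, 0.0970 and 0.7005 CPM in C57BL/6 mutants. In the interaction 8 of the 53 genes passed edgeR's test, in a comparison that called 10% of all genes. DESeq2 called 16 of the 53 and 16.6% of all genes, and 25 of the 53 had an unadjusted edgeR p under 0.05, against 29.5% of all genes. Of the 8 that edgeR called, 7 were positive: Ugt8a (4.64, SE 1.08, edgeR adjusted p = 0.0241), Gfap (2.00, SE 0.43, edgeR adjusted p = 0.0182), Sox5 (1.96), Sox9 (1.32), Frzb (0.92), Lama2 (0.62) and Ncam1, the neural cell adhesion molecule (0.62, SE 0.16, edgeR adjusted p = 0.0321). Nab2 was negative (-0.61, SE 0.10, edgeR adjusted p = 0.00484).

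**Figure D4:**
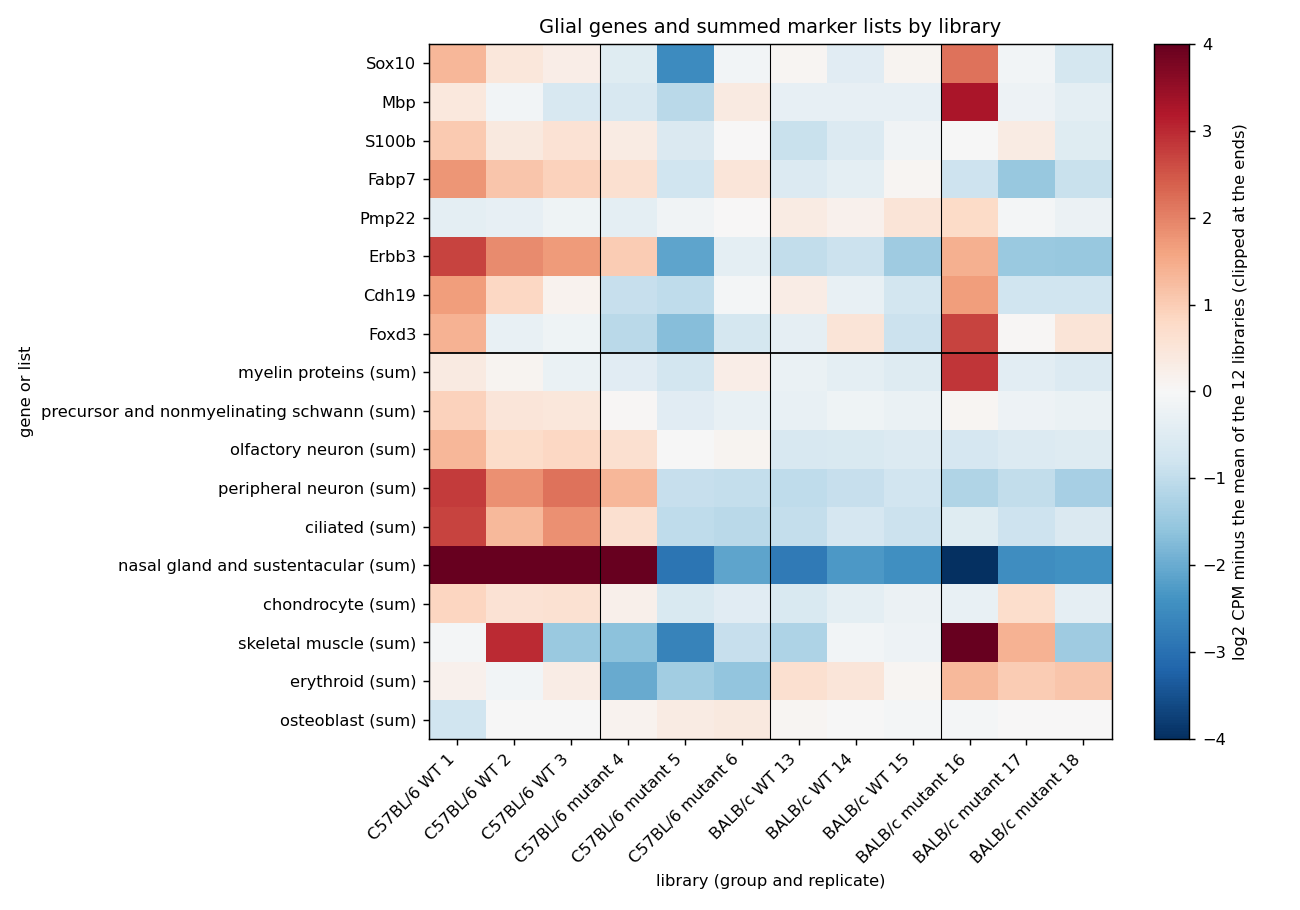
Colour gives log2 CPM minus the mean of the 12 libraries for the 8 glial genes (upper rows) and for summed marker lists (lower rows); columns are the libraries in 4 groups, and colours are clipped at the ends of the scale. BALB/c mutant 16 is dark red for Mbp, Foxd3, the myelin sum and the muscle sum, while C57BL/6 wild type 1, 2 and 3 and mutant 4 are red for Erbb3, Fabp7 and the nasal and neuron sums.

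The genes whose pattern over the 12 libraries was nearest to each of the 8 were found among 12896 named genes, by the mean absolute difference of log2 CPM after centring each gene on its own mean. Those named here are among the 3 nearest of each gene. For Erbb3 they were Plekhb1 (0.27) and Atp10b (0.28). For Cdh19 they were Adamts20 (0.31) and Slc35f1 (0.32). Sox10 was nearest to Cmtm5 (0.35), Cadm4 (0.38), a Schwann cell adhesion protein, and Ttyh1 (0.39). Cadm4 was also the third nearest to Foxd3 (0.44), after Aatk (0.35) and Tubb4a. Mbp was nearest to Myh11, the smooth muscle myosin (0.31), and to Art3, and S100b to Sorbs2 (0.16), Klf15 and Caskin1. Fabp7 was nearest to Lrrn1 (0.21), AK129341 and Lrrc16b. Pmp22 varied so little that 2487 genes lay within 0.25 of it, so its nearest gene, Cd248 (0.14), is 1 of many. Ranking by Pearson correlation instead shared between 0 and 2 of the 3 genes, so these neighbours depend on the measure. Among the 8 genes themselves the nearest pair was Sox10 and Cdh19 (0.42) and the farthest was Pmp22 and Erbb3 (1.52).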

How the data were processed

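Read counts per gene and RPKM values for 12 libraries were deposited by the authors. Per the submitters' processing notes, bcl2fastq, TopHat2 2.0.6, HTSeq, DESeq2 and the mm10 build were used; counting settings are not given in the sources used here. The p-values and q-values, and log2 fold changes, of the authors' deposited table were copied and named as theirs. Every deposited count was even, so counting precision may be lower than the counts imply.

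Groups came from the sample titles. Counts were fitted with edgeR 4.0.16 in R 4.3.3 (TMM, quasi-likelihood test, all 12 libraries, 1 mean per group). Genes needed a count of about 10 in a group's worth of 3 libraries and a total of 15, and 16190 passed. Calls are at a Benjamini-Hochberg adjusted p under 0.05 over all genes. Alternatives were DESeq2 1.42.0, limma-voom (limma 3.58.1), other scalings and filters, marker covariates, omitted libraries and, chosen after seeing the data, halved counts. With 3 against 3 no permutation test can go below the threshold.

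The 8 genes and the 19 other lists were chosen with earlier results of these data known. All 8 genes are named in every comparison; of each list, up to 3 called genes with the largest change and a mean of at least 1 CPM, or 2 of highest mean where none passed, and the 3 nearest patterns per gene. Some genes that this rule names are not reported here.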

Additional observations from a re-analysis of the deposited data

How the results depend on the processing

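Of 640 values of the 8 genes under the alternatives, 566 kept direction and side of the threshold. The number of the 8 genes passing is given with the share of all genes called in brackets. In C57BL/6 genotype it was 1 (23.9%), and 3 with total counts (28.9%), 2 with DESeq2 (27.6%) and 3 with limma-voom (29.1%). It was 0 with only the groups compared (8.72%), with the olfactory neuron covariate (1.1%) and with the ciliated cell covariate (0.0185%). With 1 library left out it was 0 to 3 (10.7% to 29.4%). Between wild types it was 4 (48.5%), and 0 with either covariate (10.5% and 2.38%). Between mutants it was 3 (36.9%), and 1 with limma-voom (36.4%) and with the olfactory neuron covariate (35%). With 1 library left out it was 1 to 4 (27.8% to 33.4%). For the interaction it was 0 (10%), and 2 with total counts (11.4%) and with DESeq2 (16.6%). With 1 library left out it was 0 to 2 (3.87% to 19.4%). Signs turned as follows (log2). With the ciliated cell covariate, S100b was at 0.11 and Pmp22 at -0.34 in C57BL/6 genotype, Sox10 at 0.029 and Foxd3 at 1.15 between wild types, and Fabp7 at -0.74 and Pmp22 at 0.25 in the interaction. With the olfactory neuron covariate, Pmp22 was at -0.065 in C57BL/6 genotype, Sox10 at 0.29 between wild types and Fabp7 at -0.35 in the interaction. With total counts, Pmp22 was at -0.072 in C57BL/6 genotype. With limma-voom, Erbb3 was at -0.23 between mutants. With 1 library left out, C57BL/6 genotype gave Mbp -0.80 to 0.054. BALB/c genotype gave Sox10 -0.30 to 1.52, Pmp22 -0.49 to 0.066, Erbb3 -0.43 to 1.65 and Cdh19 -0.60 to 1.09. Wild types gave Mbp -0.52 to 0.033 and Foxd3 -1.12 to 0.10. Mutants gave S100b -0.19 to 0.26, Erbb3 -1.51 to 1.16 and Cdh19 -0.19 to 1.498. The interaction gave Fabp7 -0.057 to 0.52. The cause of these changes was not tested. Halved counts changed no call.

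Total counts as scaling moved the median log2 of all genes to -0.20 in C57BL/6 genotype, -0.12 between wild types, 0.11 between mutants and 0.24 in the interaction. The share of calls that were higher went from 47.5% to 13.2%, from 47.1% to 31.2%, from 48.8% to 67.8% and from 54.4% to 90.5%. No paired analysis was possible because the groups share no replicate numbers. A fit of only the groups compared was not run for the interaction, whose contrast uses all 4 groups. Depth limits Foxd3 and Cdh19 most, whose lowest counts were 12 and 14.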
